A study of Rattus norvegicus with 12 samples.

Results

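The 4 libraries of rat cortical neurons that received a non-targeting control shRNA (shNTC) are described here for the microRNAs (miRNAs) they hold. They are 4 of the 12 libraries of a study on neurons depleted of Staufen2 or Pumilio 2, and were taken by their labels alone. Within them, 685 of the 805 small RNA names in each table are miRNA names of the rat, meaning a miR or let-7 name, and the other 120 are names of Piwi-interacting RNAs (piRNAs). All 685 were kept, whatever their level, and no group was compared with another.

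The cells were primary cultures from Sprague Dawley rats. Cortices of embryonic day 17 were dissociated and plated at 100000 cells per square centimetre in 60 mm dishes, and a lentivirus carrying the shRNA was added at 10 days in vitro. Lysis followed at 14 days in vitro. The RNA had an integrity number of 9.5, and the libraries were built with a small RNA kit that tags molecules with unique identifiers. All 4 libraries therefore come from neurons that carried a virus and a foreign hairpin, and untreated neurons are not analysed here. The protocols name no step that sorts neurons from other cells. The 4 libraries are called biological replicates, and whether they came from separate litters is not given.

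A miRNA gene is transcribed into a long precursor with a hairpin, which Drosha and then Dicer cut to a short duplex. An Argonaute protein takes up a strand of the duplex, the 5p or the 3p arm of the hairpin, and uses its seed, the bases from position 2 to position 8, to find target mRNAs. The other strand is usually lost. miR-9, miR-124 and miR-128 are classical miRNAs of the brain, where let-7 and miR-125 accumulate as progenitors leave the cell cycle and mature.

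A mature sequence was found in RefSeq (assembly GRCr8) for 616 of the 685 names, which held 97.4% of the miRNA counts. The sequences below are those that lead the ranking. Each is written 5′ to 3′ with the seed in capitals, and the single names that share no seed with another leading name come before the families.
miR-9a-5p: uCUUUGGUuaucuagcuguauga
miR-9a-3p: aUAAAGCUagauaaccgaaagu
miR-128-3p: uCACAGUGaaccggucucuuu
miR-16-5p: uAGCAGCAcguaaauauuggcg
miR-7a-5p: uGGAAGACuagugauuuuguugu
miR-137-3p: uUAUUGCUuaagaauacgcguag
miR-127-3p: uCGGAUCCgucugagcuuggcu
miR-29a-3p: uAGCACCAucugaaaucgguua
Of the 2 arms of the miR-9a hairpin, each has its own seed. The let-7 names share theirs, and differ further along and, for let-7d-5p, also at the base before it.
let-7c-5p: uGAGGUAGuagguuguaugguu
let-7f-5p: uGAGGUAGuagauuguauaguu
let-7a-5p: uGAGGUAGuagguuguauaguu
let-7b-5p: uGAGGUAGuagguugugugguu
let-7i-5p: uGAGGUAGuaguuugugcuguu
let-7e-5p: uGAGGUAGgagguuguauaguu
let-7g-5p: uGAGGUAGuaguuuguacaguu
let-7d-5p: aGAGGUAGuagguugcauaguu
miR-98-5p: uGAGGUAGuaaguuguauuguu
In the miR-125, miR-26 and miR-30 families the seed is again held in common. miR-384-5p carries the miR-30 seed under a different number.
miR-125b-5p: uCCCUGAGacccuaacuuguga
miR-125a-5p: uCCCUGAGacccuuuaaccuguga
miR-26a-5p: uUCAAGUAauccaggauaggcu
miR-26b-5p: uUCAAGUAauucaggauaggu
miR-30a-5p: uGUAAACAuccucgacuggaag
miR-30c-5p: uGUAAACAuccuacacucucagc
miR-30e-5p: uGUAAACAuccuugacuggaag
miR-384-5p: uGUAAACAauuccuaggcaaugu
miR-30d-5p, miR-99a-5p, miR-124-3p, miR-335 and miR-30b-5p are among the 69 names for which no sequence was found. The authors' table joins miR-103-3p and miR-107-3p in 1 name, and both members have the same seed.
miR-103-3p: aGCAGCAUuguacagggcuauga
miR-107-3p: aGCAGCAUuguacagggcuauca

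Sequencing depth was similar in the 4 libraries. Total counts were 5048790, 4354325, 5415763 and 3836349 in replicates 1 to 4, and miRNA names held all but 0.686% to 0.942% of them. Levels are given below as CPM, the count of a name scaled to 1000000 miRNA counts of its library, with the mean ± SD over the 4 libraries. They are shares of a library, so they rank miRNAs but give no number of molecules per cell. At least 3 counts were found for 658, 661, 661 and 650 of the 685 names, where 3 counts correspond to 0.558 to 0.788 CPM. The sources used here do not say whether reads or molecules were counted, so such a floor covers counting error only. Every name had a count in at least 1 library, and 634 had a count in all 4. At least 1 count was found for 660, 662, 662 and 654 names in replicates 1 to 4. Nearly every name with a count in a library thus had at least 3. Whether lower counts were removed before deposit is not given, so a name without a count may not be absent. Across the 451 names with a mean of at least 10 CPM, Pearson's r between the log2 CPM of library pairs lay between 0.988 and 0.994. This r is across miRNAs, which are not independent replicates. A chi-square per degree of freedom of 42.9 to 70.7 for the 6 pairs shows libraries that differ by far more than sampling noise, so none was a copy of another.

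The label "cortical neurons" was compared with miRNAs known to mark cell types. The 9 neuronal markers were all detected and summed to 114405, 117276, 120456 and 121632 CPM, a mean of 118442 ± 3260 CPM or 11.8% of the miRNA counts. miR-128-3p gave most of it with 89900 ± 2958 CPM, followed by miR-137-3p with 10349 ± 1642 CPM, and 7 of the 9 stood above 1000 CPM. miR-124-3p, the best known neuronal miRNA, had 4933 ± 612 CPM and rank 27. The lowest of the neuronal markers were miR-153-3p with 137.8 ± 18.8 CPM and miR-212-3p with 104.2 ± 13.4 CPM. Both arms of miR-9a, which neural progenitors and neurons share, summed to 232169 ± 14350 CPM.

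Summed by list, markers of other cells were present at lower levels. By single name the lists overlapped. The astrocyte names miR-21-5p, miR-24-3p and miR-23a-3p (1859 ± 369 CPM) had higher means than the neuronal miR-132-3p (1819 ± 139 CPM). The 6 names listed for astrocytes, the star-shaped glia of the cortex, summed to 9528, 11937, 8062 and 7774 CPM, 0.933% of the counts, and were highest in replicate 2. The list includes miR-449a-5p (965 ± 510 CPM, with 1604 CPM in replicate 2) and miR-143-3p (121 ± 94.2 CPM), which are also known from ciliated cells and from mesenchyme. miR-21-5p led them with 3388 ± 1362 CPM, and miR-24-3p, which many cell types express, had 2458 ± 74.2 CPM. For oligodendrocytes, the myelin-forming glia, the 4 names summed to 294 ± 52.0 CPM, led by miR-338-3p with 257 ± 47.9 CPM. The other leading member, miR-219a-5p, a defining miRNA of this lineage, had 25.5 ± 4.32 CPM. The 6 names of microglia and white blood cells summed to 191 to 403 CPM, led by miR-155-5p with 133 ± 27.6 CPM and miR-146a-5p with 128 ± 76.9 CPM. miR-142-3p and miR-223-3p, which blood cells make in large amounts, stood at 17.2 ± 4.46 and 6.02 ± 1.74 CPM.

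Vessel and mesenchyme markers (7 names) summed to 691 ± 79.2 CPM, with miR-126a-3p of endothelium at 424 ± 29.5 CPM and miR-199a-3p of mesenchyme at 115 ± 81.1 CPM. The 7 epithelial and choroid plexus markers, 6 of them in the table, summed to 1501, 2125, 1194 and 1341 CPM (1540 ± 410 CPM) and were likewise highest in replicate 2. Of this sum miR-204-5p alone gave 1521 ± 406 CPM. The next, miR-211-5p, had 6.69 ± 1.85 CPM. For muscle the sum was 219 ± 52.8 CPM, led by miR-206-3p with 189.7 ± 53.7 CPM and the joined name of miR-133a-3p and miR-133b-3p with 21.8 ± 2.99 CPM. miR-122-5p of liver had 25.5 ± 3.03 CPM and miR-375-3p of endocrine pancreas 28.6 ± 14.0 CPM. The 2 red blood cell names in the table, miR-144-5p and miR-451-5p, had means of 2.00 and 1.45 CPM, and the 2 names of pluripotent cells, miR-295-3p and miR-292-3p, had 0.871 and 0.859 CPM, all near or under the level of 3 counts in some libraries. Whether the names of other cell types came from other cells in the dish or from neurons was not tested, and in a bulk culture fewer cells of a type and less RNA per cell cannot be told apart.

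A few miRNAs held most of the counts. The 5 most abundant names took 51.1%, 52.2%, 53.6% and 52.4% of the miRNA counts in replicates 1 to 4, a mean of 52.3 ± 1.02%, and the top 20 took 78.7 ± 0.705%. A share of 50% was reached with 5 names in each library, 90% with 46 to 52 and 99% with 211 to 228. On average 80 names reached 1000 CPM, 230 reached 100 CPM and 451 reached 10 CPM. An effective number, the exponential of the Shannon entropy, came to 31.8 to 34.8 equally abundant names.

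miR-9a-5p was the most abundant miRNA in every library. This arm of the miR-9 hairpin, a regulator of neural progenitors and of neuronal maturation, stood at 171088, 208111, 194067 and 196358 CPM in replicates 1 to 4. Its mean was 192406 ± 15486 CPM, or 19.2% of all miRNA counts, and replicate 1 was the lowest. miR-125b-5p, a miRNA that rises as neurons differentiate, came next with 129897, 118660, 129459 and 127722 CPM. miR-128-3p, which is enriched in brain neurons, followed with 87550, 88174, 94110 and 89765 CPM. The ranges of these 3 miRNAs did not overlap. let-7c-5p had 81162, 68953, 77794 and 71718 CPM and was the fourth in each library, and miR-9a-3p had 41272, 38598, 40542 and 38640 CPM and was the fifth.

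**Figure D1:**
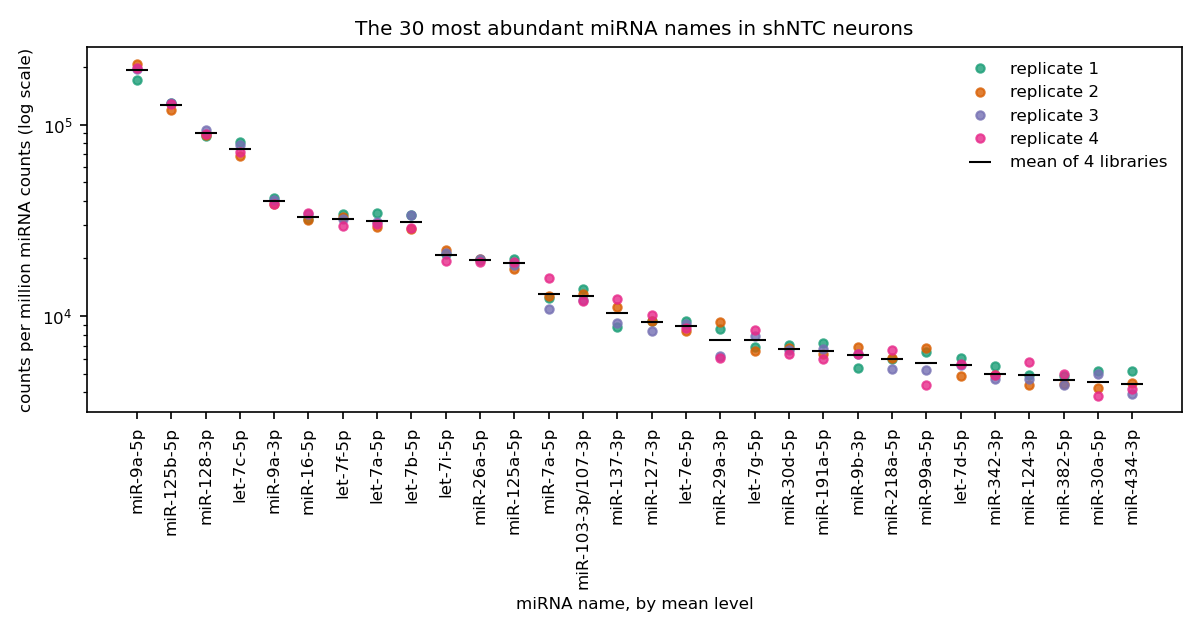
Level of the 30 most abundant miRNA names in the 4 shNTC libraries, ordered by mean. The y axis is CPM on a log scale, points are libraries and bars are means. The 5 leading names keep their order in all 4 libraries, from miR-9a-5p at 192406 CPM to miR-9a-3p at 39763 CPM, while the points of most later neighbours overlap.

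Below rank 5 the order was mostly not fixed. miR-16-5p (33095 ± 1315 CPM), let-7f-5p (32212 ± 1920), let-7a-5p (31217 ± 2393) and let-7b-5p (31153 ± 2863) had overlapping ranges, and neighbours among them changed places between libraries. let-7i-5p with 20967 ± 1131 CPM was set apart from let-7b-5p above it, but not from miR-26a-5p with 19613 ± 277 CPM. miR-26a-5p and miR-125a-5p (18856 ± 936 CPM) overlapped in turn, and both lay above miR-7a-5p (12986 ± 2115 CPM) in each library. Of the 19 neighbouring pairs among the 20 leading names, 7 had ranges that did not overlap, and 8 kept their order in 4 of 4 libraries. A set of 17 names was in the top 20 of every library.

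The remaining names of the top 20 lay between 6712 and 12773 CPM. They were the joined name of miR-103-3p and miR-107-3p (12773 ± 873 CPM), miR-137-3p (10349 ± 1642), miR-127-3p (9321 ± 713), let-7e-5p (8908 ± 463), miR-29a-3p (7538 ± 1661), let-7g-5p (7470 ± 871) and miR-30d-5p (6712 ± 321). miR-137-3p, which restrains proliferation and shapes dendrites, had 8807 and 9163 CPM in replicates 1 and 3, against 11168 and 12256 CPM in replicates 2 and 4. miR-29a-3p, a miRNA that rises with brain maturation, was split otherwise, with 8525 and 9365 CPM in replicates 1 and 2 and 6192 and 6071 CPM in replicates 3 and 4. miR-7a-5p was highest in replicate 4 with 15908 CPM and lowest in replicate 3 with 10861 CPM.

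Grouping names by identical seeds gave 527 families, of which 470 had 1 name and 57 had several. The let-7 family was the largest by mean share, with 22.8%, 20.2%, 22.0% and 20.3% of the miRNA counts in replicates 1 to 4 (21.3 ± 1.25%). It has 9 names, and 8 of them exceeded 1000 CPM. let-7c-5p made up 35.1% of the family, and miR-98-5p, which belongs to let-7 by its seed, had 986 ± 62.7 CPM. miR-9a-5p, the only name with its seed, held 17.1%, 20.8%, 19.4% and 19.6% (19.2 ± 1.55%). The let-7 family led in 3 libraries and miR-9a-5p in replicate 2, so these families could not be ordered beyond their spread.

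The miR-125 family followed with 14.5 ± 0.606%, of which miR-125b-5p gave 86.9%, miR-125a-5p most of the rest, and miR-351-5p, which shares the seed, 209 ± 30.8 CPM. miR-128-3p (8.99 ± 0.296%) and miR-9a-3p (3.98 ± 0.135%) were again alone with their seeds. The family of miR-16-5p, known for curbing the cell cycle, held 3.44 ± 0.134%, and miR-16-5p was 96.1% of it. Its 4 other names were miR-195-5p (510 ± 112 CPM), miR-322-5p, miR-15b-5p and miR-497-5p. The miR-26 family held 2.38 ± 0.0887% with miR-26a-5p at 82.5% of it and miR-26b-5p at 4173 ± 625 CPM.

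In the miR-30 seed family (1.52 ± 0.0796%) no name dominated. miR-30a-5p had 4554 ± 631 CPM, miR-30c-5p 3750 ± 444, miR-384-5p 3513 ± 112 and miR-30e-5p 3367 ± 374. miR-384-5p, a miRNA expressed mainly in brain and named outside the miR-30 series, thus stood level with the miR-30 names of its seed family. miR-30d-5p, which was more abundant than each of these, and miR-30b-5p (519 ± 60.4 CPM) could not be placed by seed. Grouping by the number in the name gave 1.97% for miR-30 with miR-30d-5p and miR-30b-5p and without miR-384-5p. The same grouping pooled the 4 miR-9 names, both arms of miR-9a and of miR-9b, to 23.8% (21.8%, 25.4%, 24.1% and 24.1% in replicates 1 to 4). By name let-7 held 21.3% (22.8%, 20.2%, 21.9% and 20.3%), so the miR-9 names led in replicates 2 to 4 and let-7 in replicate 1. The 8 leading seed families held 75.4 ± 1.22% of all miRNA counts, and 12 families reached 1%.

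**Figure D2:**
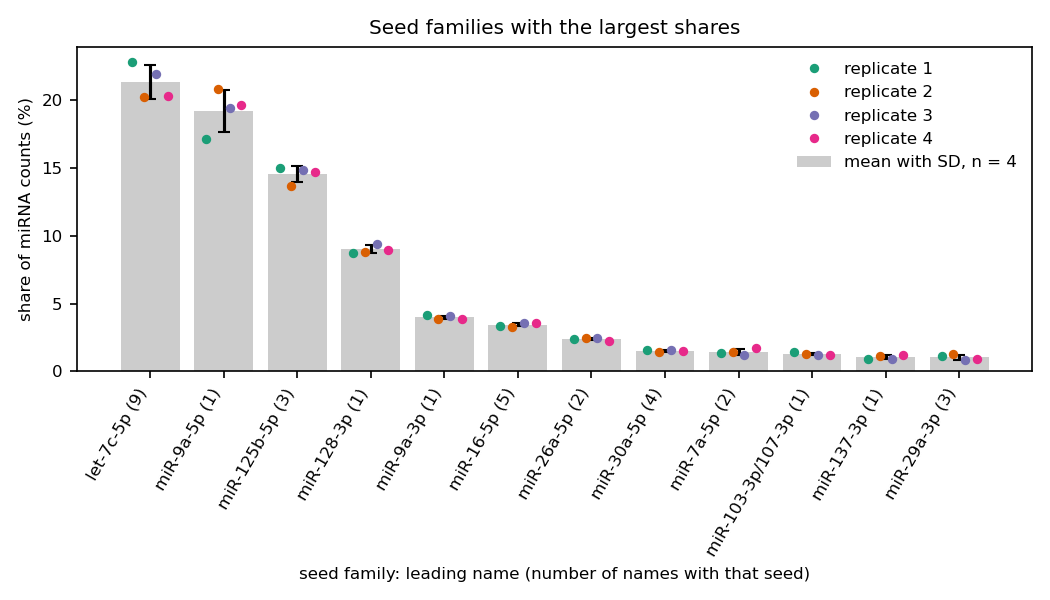
Share of the miRNA counts held by the 12 leading seed families, each labelled with its most abundant name and its number of names. Bars are means of 4 libraries with the SD, points are libraries, and the y axis starts at 0. The let-7 family (21.3%) and miR-9a-5p (19.2%) exchange places in replicate 2, and the shares fall to 1.02% for the family of miR-29a-3p.

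Shares of single let-7 members depend on reads that differ at few positions. let-7c-5p differs at 1 base from let-7a-5p and from let-7b-5p, and let-7a-5p at 1 base from let-7f-5p and from let-7e-5p. The same holds for miR-29a-3p and miR-29c-3p, for miR-30a-5p and miR-30e-5p, and for miR-7a-5p and miR-7b. They are among 14 such pairs of unjoined names with a sequence and at least 100 CPM each. In all 14 the stronger name reached 1000 CPM. Pairs with a rarer member, such as miR-204-5p and miR-211-5p, which also differ at 1 base, were not counted. Reads may have been exchanged within such pairs in the authors' assignment. The totals of the let-7, miR-29 and miR-7 families do not rest on that assignment. The same cannot be said of the miR-30 seed total, which leaves out miR-30d-5p and miR-30b-5p because no sequence was found for them.

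Names that begin with U held most of the counts. Argonaute proteins are known to hold a guide strand that starts with U, or next best with A, more tightly than others. Of the 616 names with a sequence, 223 (36.2%) began with U, and they took 84.9 ± 0.380% of the counts of all names with a sequence. Names with A made up 29.4% of the names and 10.8% of the counts, while those with C (21.9% of names) held 3.21% and those with G (12.5%) held 1.08%. Of the 5 leading names, 4 begin with U and miR-9a-3p with A. Without those 5, names with U held 76.3%.

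The 5p and 3p arms of a hairpin were then compared within each library. Names ending in 5p (269) held 73.3 ± 0.293% of the miRNA counts and names ending in 3p (290) held 23.3 ± 0.188%, with 3.35% in names without an arm or joined names. For 249 hairpins both arms had a name, and 248 reached a mean of 1 CPM over both arms. An edgeR quasi-likelihood model with the library as a block tested each ratio, with Benjamini-Hochberg adjustment over the 248. The 5p arm was higher for 122 hairpins (49.2% of those tested) and the 3p arm for 99 (39.9%), together 89.1%, and 27 did not pass at an adjusted p of 0.05.

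The ratios were often large. The arms differed at least 10-fold for 127 hairpins (51.2%) and at least 100-fold for 39, and the median ratio was 10.9. Among the 72 hairpins of at least 1000 CPM the median was 69.2, all 72 passed the test (46 with 5p and 26 with 3p higher), and none was under 2-fold. Among the 81 hairpins under 100 CPM the median was 3.60, 20 differed at least 10-fold and 23 did not pass. Weak arms of rare hairpins lie nearer to the counting floor, and its part in the lower ratios was not tested.

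miR-9a kept both of its arms at a high level. The log2 ratio of 5p to 3p was 2.05, 2.43, 2.26 and 2.35 in replicates 1 to 4, a 4.83-fold excess of the 5p arm (mean log2 2.27 ± 0.16, SE of the fit 0.07, adjusted p = 1.96e-09 by edgeR). The weaker arm was thus the fifth most abundant name of all. For miR-125b the 5p arm stood at 126434 CPM and its 3p names at 519 CPM (log2 7.94 ± 0.17, 245-fold). miR-16 (log2 8.78 ± 0.05), let-7f (10.06 ± 0.06), let-7b (7.31 ± 0.06), let-7i (8.25 ± 0.21) and miR-125a (7.63 ± 0.11) were strongly unequal too. miR-26a was the most unequal of the 8 leading 5p hairpins, with 19613 CPM against 7.20 CPM (log2 11.42 ± 0.20, 2744-fold). Each was 5p higher in 4 of 4 libraries. let-7a and let-7c were left out because the table joins some of their 3p names, and those joined reads (80.2 ± 7.45 CPM) compare with 74907 CPM for let-7c-5p and 31217 CPM for let-7a-5p.

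Among hairpins with the 3p arm higher, miR-128 led. Its 3p arm had 89900 CPM, and the 5p arms of its pair of genes summed to 25.2, 28.1, 25.8 and 20.8 CPM (log2 -11.82 ± 0.19, 3622-fold, adjusted p = 3.70e-12 by edgeR). miR-29a (log2 -8.63 ± 0.16), miR-137 (-7.41 ± 0.23), miR-342 (-6.00 ± 0.24) and miR-124 (-4.99 ± 0.09) were 3p higher in each library too. miR-127, from an imprinted locus active in brain, had 9321 CPM in its 3p arm and 531 CPM in its 5p arm (log2 -4.13 ± 0.08). The miR-434 hairpin of the same locus was less unequal, at -2.85, -2.42, -2.49 and -2.15 in replicates 1 to 4 (mean -2.48 ± 0.29). miR-9b, also among the 8 most abundant hairpins with 3p higher, had log2 ratios of -6.07 in replicate 1 and -6.54 to -6.50 in the others.

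**Figure D3:**
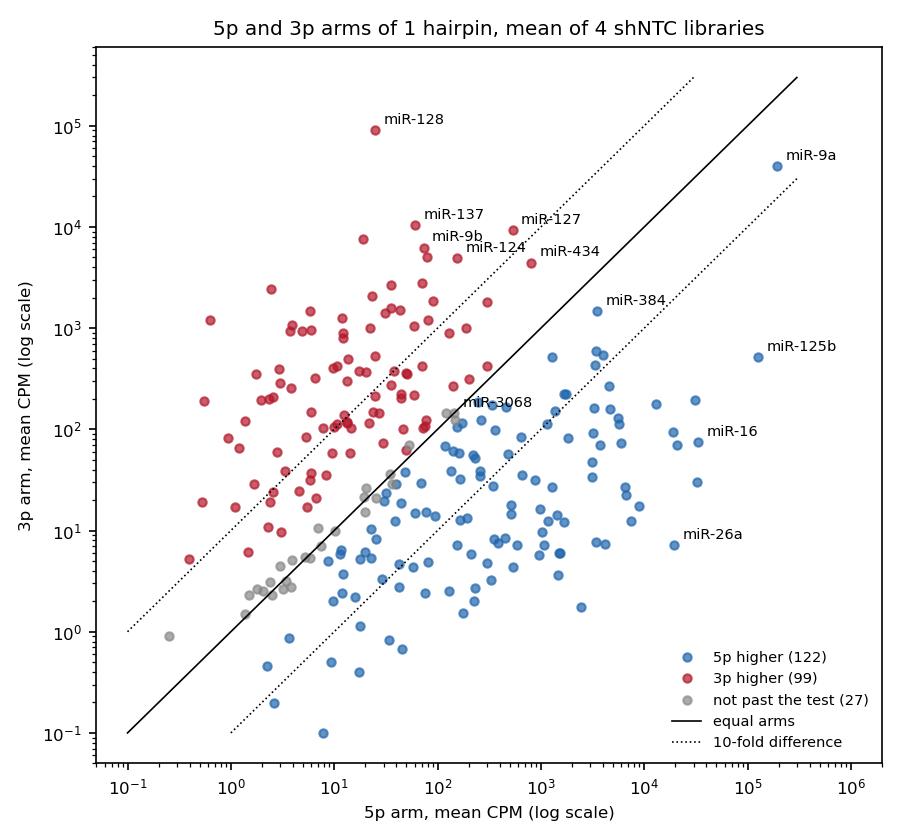
Mean CPM of the 5p arm (x axis) and the 3p arm (y axis) of 248 hairpins over 4 shNTC libraries, both on log scales. Colours give the edgeR call (122 with 5p higher, 99 with 3p higher, 27 not past the test), the solid line marks equal arms and the dotted lines a 10-fold difference. miR-9a lies within 10-fold with both arms near the top of the plot, while miR-128 and miR-26a lie far from the line.

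Few abundant hairpins had nearly equal arms. Among those of at least 1000 CPM, miR-384 was nearest to equality. Its 5p arm had 3679, 3460, 3443 and 3468 CPM and its 3p arm 1470, 1592, 1464 and 1390 CPM (log2 1.25 ± 0.10, 2.38-fold). miR-369 of the same imprinted cluster as miR-382 followed at 1.32 ± 0.20 with 1293 CPM against 520 CPM, and then miR-9a. The next were miR-376b (-2.40 ± 0.06), miR-434, miR-138 (2.54 ± 0.09), miR-132 (-2.59 ± 0.10), miR-140 (-2.78 ± 0.13), miR-181a (2.87 ± 0.13) and miR-361 (2.90 ± 0.08). miR-138 and miR-132 are known regulators of dendritic spines. All 10 kept their stronger arm in 4 of 4 libraries.
miR-384-3p: aUUCCUAGaaauuguucacaau
The 3p arm of miR-384, shown above because it is the most abundant weaker arm after miR-9a-3p, carries a seed unlike that of the 5p arm.

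At least 100 CPM but no call was the state of 4 hairpins. The arms of miR-3068 were level, with log2 ratios of 0.04, -0.37, -0.00 and 0.34 and 145 CPM for each arm (adjusted p = 0.997 by edgeR). For miR-17, a member of the proliferation-linked miR-17 to miR-92a cluster, the ratios were 0.22, -0.17, 0.47 and 0.50 (adjusted p = 0.0964 by edgeR), and without replicate 2 the 5p arm passed as higher (log2 0.40, adjusted p = 0.0139). miR-485 had ratios of -0.08, -0.20, -0.13 and -0.63 (adjusted p = 0.0722 by edgeR), so that the 3p arm was higher in all 4 libraries without passing. miR-542 had -0.29, -0.88, -0.27 and 0.05 (adjusted p = 0.0694 by edgeR), and without replicate 4 the 3p arm passed as higher (log2 -0.48, adjusted p = 0.0241). In miR-3068, miR-17 and miR-542 the libraries differed in which arm was higher, and the other 164 of the 167 hairpins of at least 100 CPM had the same stronger arm in each library. The seeds of the miR-3068 arms are shown because both are present at the same level.
miR-3068-5p: uUGGAGUUcaugcaaguucuaacca
miR-3068-3p: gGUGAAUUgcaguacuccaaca

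The stronger arm began with U more often than the weaker arm. Among 183 called hairpins with a single name and a sequence for each arm, it did so in 94 (51.4%), against 35 (19.1%) for the weaker arm. Hairpins with several names for an arm, such as miR-128 and miR-125b, are not among them. In 73 hairpins only the stronger arm began with U, in 14 only the weaker, in 21 both and in 75 neither. For the 105 hairpins that differed at least 10-fold the shares were 60.0% and 16.2%, and for the 78 under 10-fold they were 39.7% and 23.1%. miR-9a and miR-137 are among the cases with U on the stronger arm, as the sequences above show. This is a count over hairpins without a test.

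Several abundant names belong to the strand opposite a stronger miRNA. In 39 pairs of names the mature sequences pair over at least 16 bases and overlap on opposite strands of the GRCr8 assembly. The weaker names of these pairs together held 1.61 ± 0.0327% of the miRNA counts, with 1.56% to 1.64% in the 4 libraries. miR-9b-3p, at rank 22 with 6233 ± 621 CPM, and miR-3588, at rank 31 with 4354 ± 186 CPM, are the most abundant of them. Their seeds are not those of miR-9a or miR-125b, as the sequences show. miR-9b-3p is nevertheless close in sequence to miR-9a-3p, shown further up, and whether reads were exchanged between these names was not tested.
miR-9b-3p: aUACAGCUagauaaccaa
miR-3588: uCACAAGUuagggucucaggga
miR-3596a: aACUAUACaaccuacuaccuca

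Where the stronger name was abundant, the weaker name was mostly a steady small share of it. miR-9b-3p was 3.15%, 3.31%, 3.26% and 3.23% of miR-9a-5p in replicates 1 to 4, and miR-3588 was 3.39%, 3.44%, 3.47% and 3.47% of miR-125b-5p. miR-3596a stood at 8.56 ± 0.261% of let-7a-5p, with which it pairs over 22 bases, miR-3596b at 5.28 ± 0.0294% of let-7d-5p, miR-3596c at 3.80 ± 0.124% of let-7e-5p and miR-3596d at 2.65 ± 0.0419% of let-7f-5p. miR-3596a also pairs with names that it does not overlap. They are let-7c-5p over 18 bases (3.57 ± 0.0542%) and let-7b-5p over 16 bases (8.59 ± 0.342%). The 4 miR-3596 names summed to 1.96 ± 0.0223% of the 8 let-7 5p names. Across the 14 pairs whose stronger name reached 1000 CPM, the median was 4.01%, and 11 lay between 2% and 10%. In 12 of these 14 the coefficient of variation of the ratio was below that of the weaker name itself (medians 4.61% and 6.93%).

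The exceptions among the 14 were on both sides. miR-9b-5p was 0.185 ± 0.0104% of miR-9a-3p and miR-3556a 0.0864 ± 0.0251% of miR-29a-3p, while miR-3556b reached 22.0 ± 3.91% of miR-29c-3p. miR-3556b also pairs over 17 bases with miR-29b-3p, which it does not overlap, and was 17.4 ± 2.45% of that name. For miR-9b the 3p arm opposite the strongest name was thus abundant and the 5p arm opposite miR-9a-3p was not. Over all 39 pairs the median share was 6.87%, 13 pairs were over 10%, and the coefficient of variation of the ratio was below that of the weaker name in 21 (medians 16.4% and 17.2%). The sources used here do not say whether the counting kept strands apart, so reads of a miRNA and of its opposite partner cannot be told apart. What gives the weaker names their counts was not tested.

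**Figure D4:**
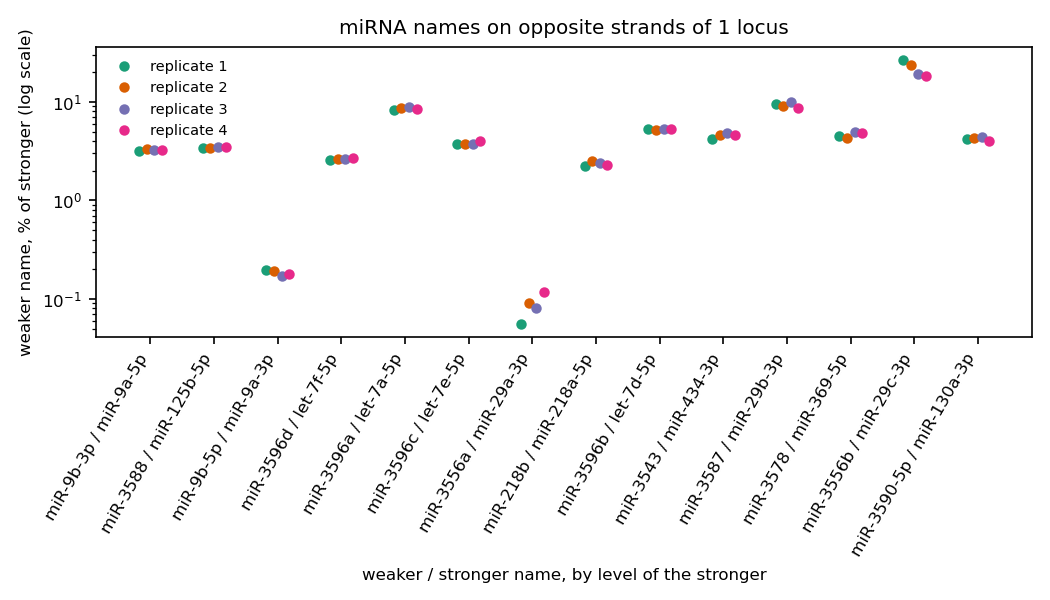
Level of the weaker name as a percentage of the stronger name, on a log y axis, for the 14 opposite-strand pairs whose stronger name reached 1000 CPM. Points are the 4 shNTC libraries, and pairs are ordered by the level of the stronger name. Most pairs lie between 2% and 10% with little spread, miR-9b-5p and miR-3556a lie under 1%, and miR-3556b lies above 10%.

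Neighbouring miRNA genes, within 10 kb on a strand in GRCr8, formed 52 clusters. Their shares count only the 253 names that come from 1 hairpin, so names made by several genes, such as let-7c-5p, let-7a-5p and let-7f-5p, are in none of them. On that basis the cluster of miR-99b, let-7e and miR-125a held the largest share, 3.13 ± 0.153%, most of it as miR-125a-5p and let-7e-5p. miRNAs of the imprinted region known as Dlk1-Dio3 are made from the maternal chromosome and are abundant in brain. The region was split over several clusters, and the pair with the largest shares is described first. The run from Mir379 to Mir410, with 31 hairpins and 59 names, held 2.44 ± 0.166%, and the run from Mir770 to Mir136, with 9 hairpins and 15 names, held 1.62 ± 0.118%. Names of the former ranged from 0.627 to 4669 CPM with a median of 70.6 CPM, and miR-382-5p was the highest. In the latter, miR-127-3p and miR-434-3p led. In both runs replicate 3 was the lowest library and the other 3 lay closer together. A smaller run of the region, from Mir341 to Mir370 with 3 hairpins and 5 names, held 0.212 ± 0.0253%.

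The spread between libraries was small for the leading names and grew at low levels. The median coefficient of variation was 5.96% for the 15 names of at least 10000 CPM, 9.75% for the 65 between 1000 and 10000 CPM, and 12.2% for the 150 between 100 and 1000 CPM. Counting error alone would give medians of 0.262%, 1.02% and 3.11%. It reached 28.7% for the 202 names between 1 and 10 CPM, where counting error gives 25.0%. The medians of abundant names thus lay far above counting error, and those of the rarest names lay close to it. How much spread beyond counting error the rare names had was not estimated.

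Among names of at least 100 CPM, miR-26a-5p was the steadiest with 1.41%. miR-296-5p (1.74%), miR-361-3p (1.76%), miR-421-3p (2.22%) and miR-24-3p (3.02%) followed. These names are the extremes of 230 with 4 libraries each, and whether any is steadier than the rest was not tested. For miR-296-5p, miR-361-3p and miR-421-3p counting error alone would give 3.91%, 3.11% and 2.81%, so their low values cannot be told apart from chance at this depth. miR-1298 had the largest coefficient, 124%, with 53.7, 336, 40.0 and 39.9 CPM in replicates 1 to 4, and its mean of 117 CPM became 44.6 CPM without replicate 2. miR-143-3p, a miRNA of smooth muscle and mesenchyme, came next with 78.1% and 34.8, 120, 75.7 and 252 CPM, and its mean of 121 CPM became 76.8 CPM without replicate 4. miR-199a-3p of mesenchyme (70.6%) was highest in replicate 4 too, with 47.3, 115, 68.2 and 229 CPM.

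Most of the other variable names, but not all, were highest in replicate 2. miR-146a-5p, a miRNA induced by inflammation, had 207, 181, 53.9 and 71.5 CPM (59.9%). miR-449a-5p, known from ciliated cells, had 612, 1604, 1145 and 501 CPM (52.8%), and its seed is shared by miR-34c-5p (38.2%), which p53 induces. miR-34b-3p (47.8%), miR-504 (41.9%) and miR-21-5p (40.2%) were highest in replicate 2 as well, the last with 3561, 5241, 2220 and 2528 CPM. miR-182 (37.1%) was highest in replicate 4 with 300 CPM and lowest in replicate 3 with 109 CPM. Of the 10 most variable names, 6 thus peaked in replicate 2 and 3 in replicate 4. Over the 230 names of at least 100 CPM, replicate 4 was the library farthest from the mean for 76, replicate 1 for 61, replicate 2 for 53 and replicate 3 for 40.

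**Figure D5:**
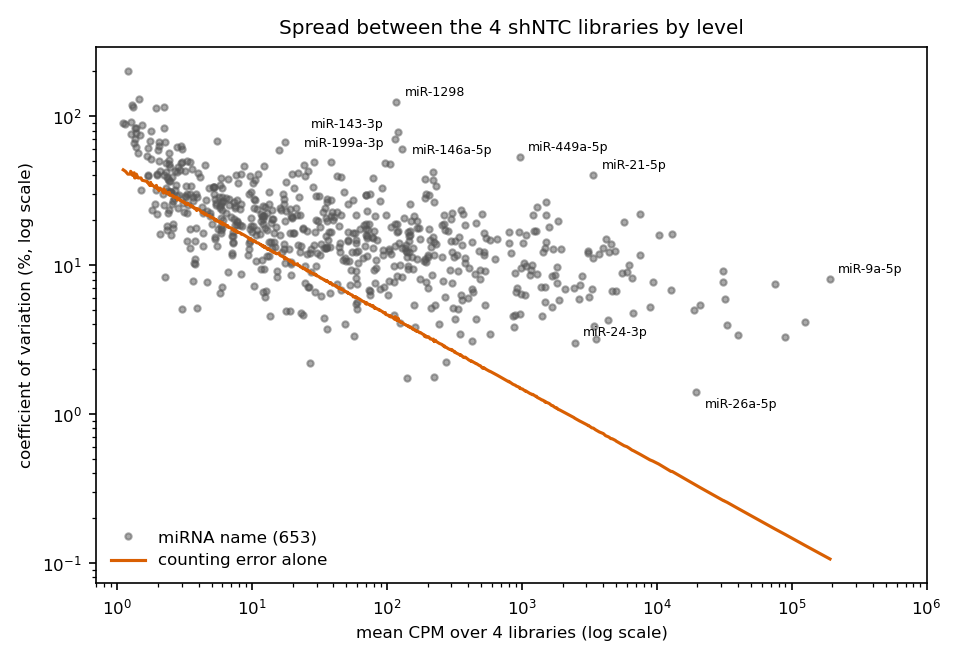
Coefficient of variation over the 4 shNTC libraries (y axis, log scale) against the mean level in CPM (x axis, log scale) for the 653 miRNA names of at least 1 CPM. The line is the value that counting error alone gives. Most names above 100 CPM lie above the line, miR-1298 stands highest among them at 124% and miR-26a-5p lowest at 1.41%.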

How the data were processed

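Small RNA of the 4 shNTC libraries was analysed from the authors' deposited tables, which hold unnormalised whole-number counts per small RNA name, per the files' values. Per the submitters' processing notes they rest on the build Rnor 6.0, and the kit with unique molecular identifiers is named per the labels' protocols. The aligner, the counter and its strand setting are not given in the sources used here. Libraries of the other groups, 8 in all, were not used.

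CPM were computed over the 685 miRNA names of each library. piRNA names, 0.822 ± 0.105% of all counts, were left out. Sequences, seeds and neighbouring genes came from RefSeq tables of GRCr8, matched by name, and no coordinate of that assembly is printed. Seed families share bases 2 to 8. For the arm ratio, each hairpin had a 5p and a 3p column per library, and copies of a hairpin that share an arm name were summed, a choice made after seeing the data. Ratios were tested, two-sided, with edgeR 4.0.16 in R 4.3.3 (glmQLFit, robust, library as block, library size set to the miRNA total, mean of at least 1 CPM over both arms), Benjamini-Hochberg adjusted over 248 hairpins at 0.05. The p-values measure only the spread between these 4 libraries. Simulated counts for the 248 hairpins used their mean shares, the measured library totals and a common dispersion, with both arms drawn independently. In the simulation, 98.9% of 89 ratios of log2 1 and 100% of 111 ratios of log2 3 were called, as were 3 of 48 equal ones. In the measured data the spread differs between hairpins, so these percentages are not the power of the test there.

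Alternatives were limma 3.58.1, DESeq2 1.42.0, other filters, scalings, denominators and family definitions, a fit without the block, a test against a 2-fold difference and leaving out each replicate. Plots and summaries used Python 3.11.15, pandas 2.3.3 and matplotlib 3.10.9.

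The names given in the text are the 20 most abundant miRNAs, the 8 largest seed families with their members above 1000 CPM, the 2 most abundant members of each marker list and the 8 most abundant hairpins of each direction. They are also the 10 hairpins of at least 1000 CPM nearest to equal arms, those of at least 100 CPM without a call or with a split between libraries, and the 10 most and 5 least variable miRNAs of at least 100 CPM. Opposite-strand pairs, clusters and further members of named families were added after their values were seen. The libraries, marker lists and tests were chosen with earlier results of these data known.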

Additional observations from a re-analysis of the deposited data

Results flagged for a closer look

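Of 121 values looked at across the 4 libraries, 10 had a library that stood far from the other 3 by Dixon's criterion. Chance gives about 1 in 20 groups of independent values. The values here include names picked for their spread between the same libraries, miR-1298 among them. Some also overlap, such as miR-26b-5p and its seed family, so that rate does not apply to this set. What set these libraries apart was not tested. Among levels, miR-1298 was high in replicate 2 with 336 CPM and miR-384-5p was high in replicate 1 with 3679 CPM. miR-26b-5p was low in replicate 4 with 3240 CPM, and with it the miR-26 seed family at 2.25% of the counts. miR-30c-5p was low in replicate 2 with 3085 CPM. Among arm ratios, let-7b was high in replicate 3 with a log2 of 7.39 and miR-369 was high in replicate 4 with 1.62. miR-9b was nearest to equality in replicate 1 with -6.07. Among opposite-strand pairs, miR-3596c was 3.98% of let-7e-5p in replicate 4, above the others, and miR-3596b was 5.23% of let-7d-5p in replicate 2, below the others. The libraries also held piRNA names, which no comparison used, with a mean of 0.822% of all counts.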

How the results depend on the processing

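The counts of hairpins with the 5p or the 3p arm higher (122 and 99) kept within 1.5 times under each alternative run. With no replicate block, that is without the pairing of arms by library, 122 and 99 hairpins were called. limma gave 123 and 100, DESeq2 120 and 99, and the test against a 2-fold difference 106 and 91. Leaving out each replicate in turn gave 117 to 121 and 96 to 100. Without hairpins opposite a stronger one, 118 and 95 were called. The share of the 5 leading names lay between 51.9% and 53.2% over its alternatives, and the number of names detected moved from 657.5 to 615 with at least 10 counts. Grouping by the number in the name, in place of the seed, gave 23.8% for miR-9a-5p and for miR-9a-3p alike and 1.97% for miR-30. Levels under TMM or median-of-ratios scaling moved by less than 1 SD. The mean log2 ratio of the level miR-3068 arms ran from -0.11 to 0.12 when a replicate was left out. Without replicate 4, the mean log2 ratio of miR-485 moved from -0.26 to -0.14 and miR-542 from -0.35 to -0.48, which passed (adjusted p = 0.0241). Without replicate 2, miR-542 moved to -0.17 and miR-17 from 0.26 to 0.40, which passed (adjusted p = 0.0139). No other named hairpin changed its call when a replicate was left out. Depth limits arms and names near 3 counts, and strand and read assignment between near-identical names limit the pairs named in the text.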

Other observations

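Some opposite-strand pairs had a weaker member that was a larger share of its partner. miR-3589 had 59.2 ± 8.35 CPM beside 73.1 CPM for miR-505-3p, and its share was 75.6%, 123%, 70.9% and 67.0% in replicates 1 to 4, so only replicate 2 had it higher. miR-409a-3p was 20.6 ± 1.30% of miR-409b, which had 904 CPM. miR-1-3p, the muscle miRNA, had 7.66 ± 1.42 CPM and stood below miR-3571 on the opposite strand with 9.47 CPM. miR-1b, which shares the seed of miR-1-3p and was not on the muscle list, was higher than both with 39.3 CPM. These pairs were chosen after their values were seen.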
